A study of Mus musculus with 6 samples.

Results

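The genes described here are 47 genes of germ cell specification, meiosis and the piRNA pathway, chosen by symbol for their known functions. The choice was made with earlier results of these data known. These genes are 47 of the 53465 genes in the count tables, and every symbol had an identifier there. Enough reads to test were present for 41 of them, among 15951 genes tested in all. They were measured by poly(A) RNA sequencing in Royan B20, an established mouse embryonic stem cell line grown on gelatin and passaged 7 times in R2i/LIF. All 6 cultures received LIF with 1 µM of the MEK inhibitor that the labels spell PD0329501 and 10 µM SB431542, which blocks the receptors for TGF-beta, activin and nodal. In 3 cultures the BMP antagonist noggin (250 nM) and the BMP receptor inhibitor dorsomorphin (5 µM) were added, and the other 3 were R2i controls. All libraries come from a single line, the duration of the BMP inhibitors was not given in the sources used here, and their effects cannot be told apart because they were added together. The comparison asks how germline transcripts in these cells differ when BMP inhibitors are present.

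Germ cells silence much of their somatic programme and switch on genes for meiosis, the division in which chromosomes pair, recombine and halve in number. PIWI proteins, loaded with small piRNAs and assembled with Tudor-domain partners in germ granules, hold transposons silent in the mouse germline. In other cells many of these genes are shut off, some by methylation of CpG sites in their promoters and some by a repressor complex that contains E2F6, MGA, MAX and PCGF6. MGA and MAX recognise the E-box CACGTG, and E2F6 recognises TCCCGC. Mouse embryonic stem cells transcribe several germline genes at low to moderate levels although they do not enter meiosis. The genes Dazl, Ddx4, Sycp3, Mael, Tex19.1, Taf7l, Slc25a31, Hormad1, Asz1 and Tex101 are known to be held silent by promoter methylation outside germ cells and are called methylation-controlled here. DNA methylation itself was not measured.

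The promoters of 9 of these genes are shown as examples of the contrast described below. Dazl, Tex101, Slc25a31 and Tex19.1 are the methylation-controlled genes that rose with BMP inhibitors. Sycp3 is the methylation-controlled gene with the largest fall, and Smc1b, Stag3, Tdrd9 and Sycp2 are meiosis and piRNA genes that fell, Sycp2 by the most. Zcwpw1, Hormad2, Syce1, Mei4 and Tdrd12 fell more than Stag3 and hold neither CACGTG nor TCCCGC, but are not shown. Each sequence holds the 250 bases before the most upstream RefSeq start on GRCm38.p6, 5′ to 3′ on the strand of the gene, and ends at the base before that start. Capitals mark CACGTG, or TCCCGC on either strand (GCGGGA in the reverse direction).
Dazl, chr17:50293621-50293870, minus strand: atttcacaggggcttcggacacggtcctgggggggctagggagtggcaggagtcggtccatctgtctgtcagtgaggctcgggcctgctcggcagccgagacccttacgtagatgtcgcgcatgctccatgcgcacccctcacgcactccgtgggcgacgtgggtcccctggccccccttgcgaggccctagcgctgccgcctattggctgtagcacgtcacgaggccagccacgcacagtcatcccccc
Tex101, chr7:24672051-24672300, minus strand: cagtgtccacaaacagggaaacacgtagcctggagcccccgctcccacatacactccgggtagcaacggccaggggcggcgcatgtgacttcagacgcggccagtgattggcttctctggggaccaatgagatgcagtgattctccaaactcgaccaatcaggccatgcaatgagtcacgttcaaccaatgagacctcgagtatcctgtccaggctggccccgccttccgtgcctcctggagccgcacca
Slc25a31, chr3:40708621-40708870, plus strand: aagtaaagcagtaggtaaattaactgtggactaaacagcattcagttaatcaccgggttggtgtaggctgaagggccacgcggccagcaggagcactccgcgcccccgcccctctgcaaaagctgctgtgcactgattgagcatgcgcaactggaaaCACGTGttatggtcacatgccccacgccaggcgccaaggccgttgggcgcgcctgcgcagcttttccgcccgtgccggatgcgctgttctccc
Tex19.1, chr11:121145893-121146142, plus strand: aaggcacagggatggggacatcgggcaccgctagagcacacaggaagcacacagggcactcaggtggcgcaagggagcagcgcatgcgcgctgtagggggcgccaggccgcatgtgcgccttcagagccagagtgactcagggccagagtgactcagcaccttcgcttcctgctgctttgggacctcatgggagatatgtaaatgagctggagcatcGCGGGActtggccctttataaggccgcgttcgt
Sycp3, chr10:88459337-88459586, plus strand: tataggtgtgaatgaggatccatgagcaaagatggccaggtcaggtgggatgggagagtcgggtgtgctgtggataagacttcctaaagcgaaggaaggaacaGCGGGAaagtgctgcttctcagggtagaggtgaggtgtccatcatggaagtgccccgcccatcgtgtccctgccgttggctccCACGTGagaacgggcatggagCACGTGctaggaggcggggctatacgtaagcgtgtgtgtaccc
Smc1b, chr15:85131958-85132207, minus strand: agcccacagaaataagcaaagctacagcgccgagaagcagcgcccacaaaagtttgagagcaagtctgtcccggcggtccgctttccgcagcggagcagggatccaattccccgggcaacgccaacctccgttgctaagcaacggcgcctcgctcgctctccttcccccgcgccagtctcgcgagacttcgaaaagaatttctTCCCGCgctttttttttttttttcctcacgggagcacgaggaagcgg
Stag3, chr5:138280259-138280508, plus strand: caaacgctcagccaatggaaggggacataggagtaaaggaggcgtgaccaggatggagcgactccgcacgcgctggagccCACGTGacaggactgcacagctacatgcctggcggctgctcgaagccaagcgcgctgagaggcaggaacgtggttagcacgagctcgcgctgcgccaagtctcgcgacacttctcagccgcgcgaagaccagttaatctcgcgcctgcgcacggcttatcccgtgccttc
Tdrd9, chr12:111971309-111971558, plus strand: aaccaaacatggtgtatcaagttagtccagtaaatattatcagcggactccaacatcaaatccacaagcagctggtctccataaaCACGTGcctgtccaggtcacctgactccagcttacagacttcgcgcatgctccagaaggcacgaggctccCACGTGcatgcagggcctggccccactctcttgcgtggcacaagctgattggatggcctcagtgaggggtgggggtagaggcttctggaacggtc
Sycp2, chr2:178407659-178407908, minus strand: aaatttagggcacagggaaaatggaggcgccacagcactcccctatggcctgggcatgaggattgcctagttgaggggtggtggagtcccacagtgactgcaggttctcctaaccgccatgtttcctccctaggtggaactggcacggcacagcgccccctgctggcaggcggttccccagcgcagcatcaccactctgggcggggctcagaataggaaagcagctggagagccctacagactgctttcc

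In the stretches printed, Dazl had 20 CpG sites and Tex101 had 14, and neither held one of these motifs. Slc25a31 had an E-box beginning 93 bases before the start, and Tex19.1 had the E2F6 motif 33 bases before it. Sycp3 carried 2 E-boxes, 64 and 43 bases before the start, and an E2F6 motif at 147 bases. Smc1b had the E2F6 motif at 47 bases, Stag3 an E-box at 170 bases and Tdrd9 2 E-boxes at 165 and 95 bases. Sycp2, with the largest fall of the tested germline genes, held neither motif. A match is a description of letters, not a measurement of binding.

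Most germline genes were lower in BMP-inhibited cells, while Dazl and a few others were higher. Of the 41 genes tested, 26 fell and 9 rose at an adjusted p under 0.05, and 6 did not pass (edgeR's quasi-likelihood F test, adjusted by Benjamini-Hochberg over all 15951 genes). The background of this comparison is high, since 64.2% of all genes tested were called, 32.5% higher and 31.7% lower. Among the germline genes 85.4% were called, 22% higher and 63.4% lower. Their median log2 fold change was -0.57, beside 0.00 over all genes tested. The germline genes were chosen with earlier results of these data known, and their difference from all genes was not tested. At least a 2-fold fall was seen in 11 genes and at least a 2-fold rise in 2, where the background was 7.46% lower and 8.01% higher by that rule. The groups did not overlap for 35 of the 41 genes, beside 68.6% of all genes tested. All 35 called genes passed the count minimum in every library of both groups, so none was tested by virtue of the group in which it was high. Summed over the 47 genes, expression was 880 to 912 CPM (counts scaled to library size and composition) in BMP-inhibited libraries and 1240 to 1250 CPM in R2i controls. In bulk cultures, fewer cells expressing a gene and less RNA per cell cannot be told apart.

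**Figure D1:**
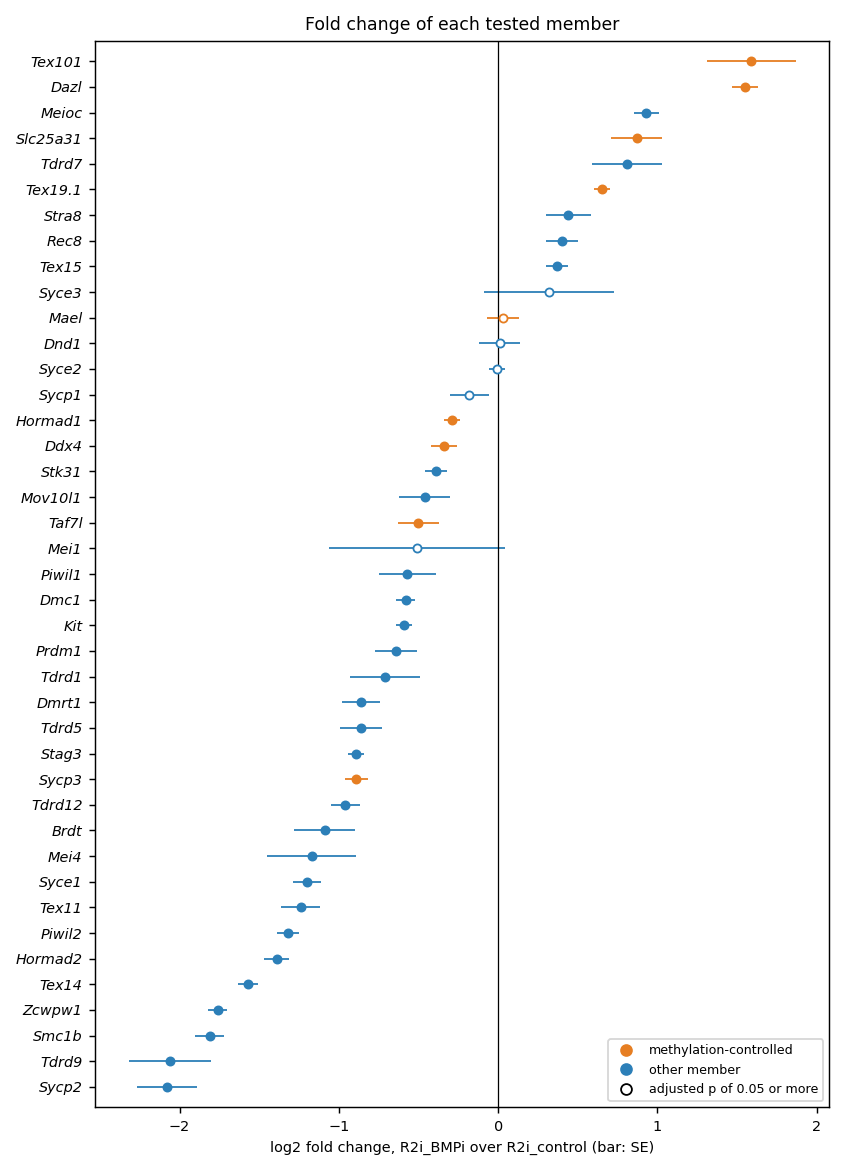
The log2 fold change of each of the 41 tested germline genes, BMP-inhibited over R2i control, with its standard error as a bar, where filled points passed an adjusted p of 0.05. Filled blue points of other genes number 22 on the negative side, down to -2.08 for Sycp2. Another 5 lie on the positive side, up to 0.93 for Meioc. Of the 9 orange methylation-controlled genes, 4 are filled on the positive side, up to 1.59 for Tex101. A further 4 are filled on the negative side, down to -0.89 for Sycp3.

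The libraries held 31474666 to 33774524 gene counts in BMP-inhibited cells and 32720441 to 35322844 in R2i controls. The pluripotent state of the cultures was checked with pluripotency genes, and the identity of the line was not checked. Pou5f1 had 826, 878 and 956 CPM in BMP-inhibited libraries, against 821, 794 and 860 CPM in R2i controls (log2 fold change 0.10, SE 0.05, adjusted p = 0.0809). Of 7 pluripotency markers tested, Sox2, Nanog, Esrrb and Tdgf1 fell, by 0.25, 0.47, 0.32 and 0.26 on the log2 scale. Utf1 rose by 0.87, and Pou5f1 and Zfp42 did not pass. All 7 were at 122 CPM or above in every library. Transcripts of other cell states moved in the same comparison. Summed counts of 13 markers of the 2-cell-like state, a rare state of embryonic stem cells, were 1552, 1116 and 1705 in BMP-inhibited libraries and 3, 2 and 3 in R2i controls, where 8 of the 13 had 0 counts in every control library. The 11 trophectoderm markers summed to 404 to 492 CPM in BMP-inhibited libraries and 225 to 232 CPM in R2i controls. Of 9 tested, 7 were higher (77.8%, beside 32.5% of all genes tested). The part of these states in the germline results was not tested. Spread between replicates was larger with BMP inhibitors than without, as pairs of BMP-inhibited libraries gave chi-square values of 8.32 to 10.9 for each gene and pairs of R2i controls 2.33 to 3.05. Replicate 2 of the BMP-inhibited cultures stood off along the principal component behind 4.7% of the variance, at -15.4 beside 11.7 and 2.1. Along the component behind 87.7% it was at -29.5 beside -36.8 and -36.7, with the controls at 34.2 to 34.6. Its chi-square values with controls were 78.5 to 83, beside 95.9 to 105 for replicates 1 and 3, so it was nearer the controls. By chi-square it was as close to replicate 3 (8.32) as replicate 1 was (8.34), while replicates 1 and 2 gave 10.9. Without replicate 2, 34 germline genes were called, 9 higher and 25 lower.

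Markers of later germ cells and of gonads were low. Of 9 markers of late spermatogenic cells, Prm1, Prm2, Tnp1 and Acrv1 had 0 counts in all 6 libraries, and the list summed to 4.33 to 5.33 CPM in BMP-inhibited libraries and 3.20 to 3.70 CPM in R2i controls. Most of that sum was Ldhc, a lactate dehydrogenase of sperm and the only one of them with enough reads to test, with 4.17, 4.24 and 5.21 CPM in BMP-inhibited libraries and 3.13, 3.34 and 2.89 CPM in R2i controls. Ldhc rose (log2 fold change 0.54, SE 0.16, adjusted p = 0.00696). Markers of gonadal somatic cells summed to 3.08 to 4.10 CPM in BMP-inhibited libraries and 2.41 to 2.98 CPM in R2i controls, and 0 of 4 tested passed. For feeder fibroblasts the sum was 9.59 to 9.70 CPM in BMP-inhibited libraries and 5.76 to 7.15 CPM in R2i controls, with Col1a1 and Postn higher among 4 tested.

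Levels per length show which germline genes these stem cells transcribed most. In BMP-inhibited libraries, Tex19.1 led with 61.8 ± 3.91 CPM per kilobase of exon, followed by Hormad1 with 37.6 ± 0.985 and Syce2 with 30.8 ± 0.810 (SD, n = 3). In R2i controls Hormad1 led with 45.8 ± 0.450 CPM per kilobase, followed by Tex19.1 with 39.4 ± 1.11 and Syce2 with 30.9 ± 0.731. Dazl took rank 7 of the 47 genes in BMP-inhibited libraries, at 11.2 ± 1.29 CPM per kilobase, and rank 24 in R2i controls, at 3.81 ± 0.138. For scale, Pou5f1 was at 394 CPM per kilobase in BMP-inhibited libraries and 367 in R2i controls. Every germline gene lay far below that pluripotency gene.

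**Figure D2:**
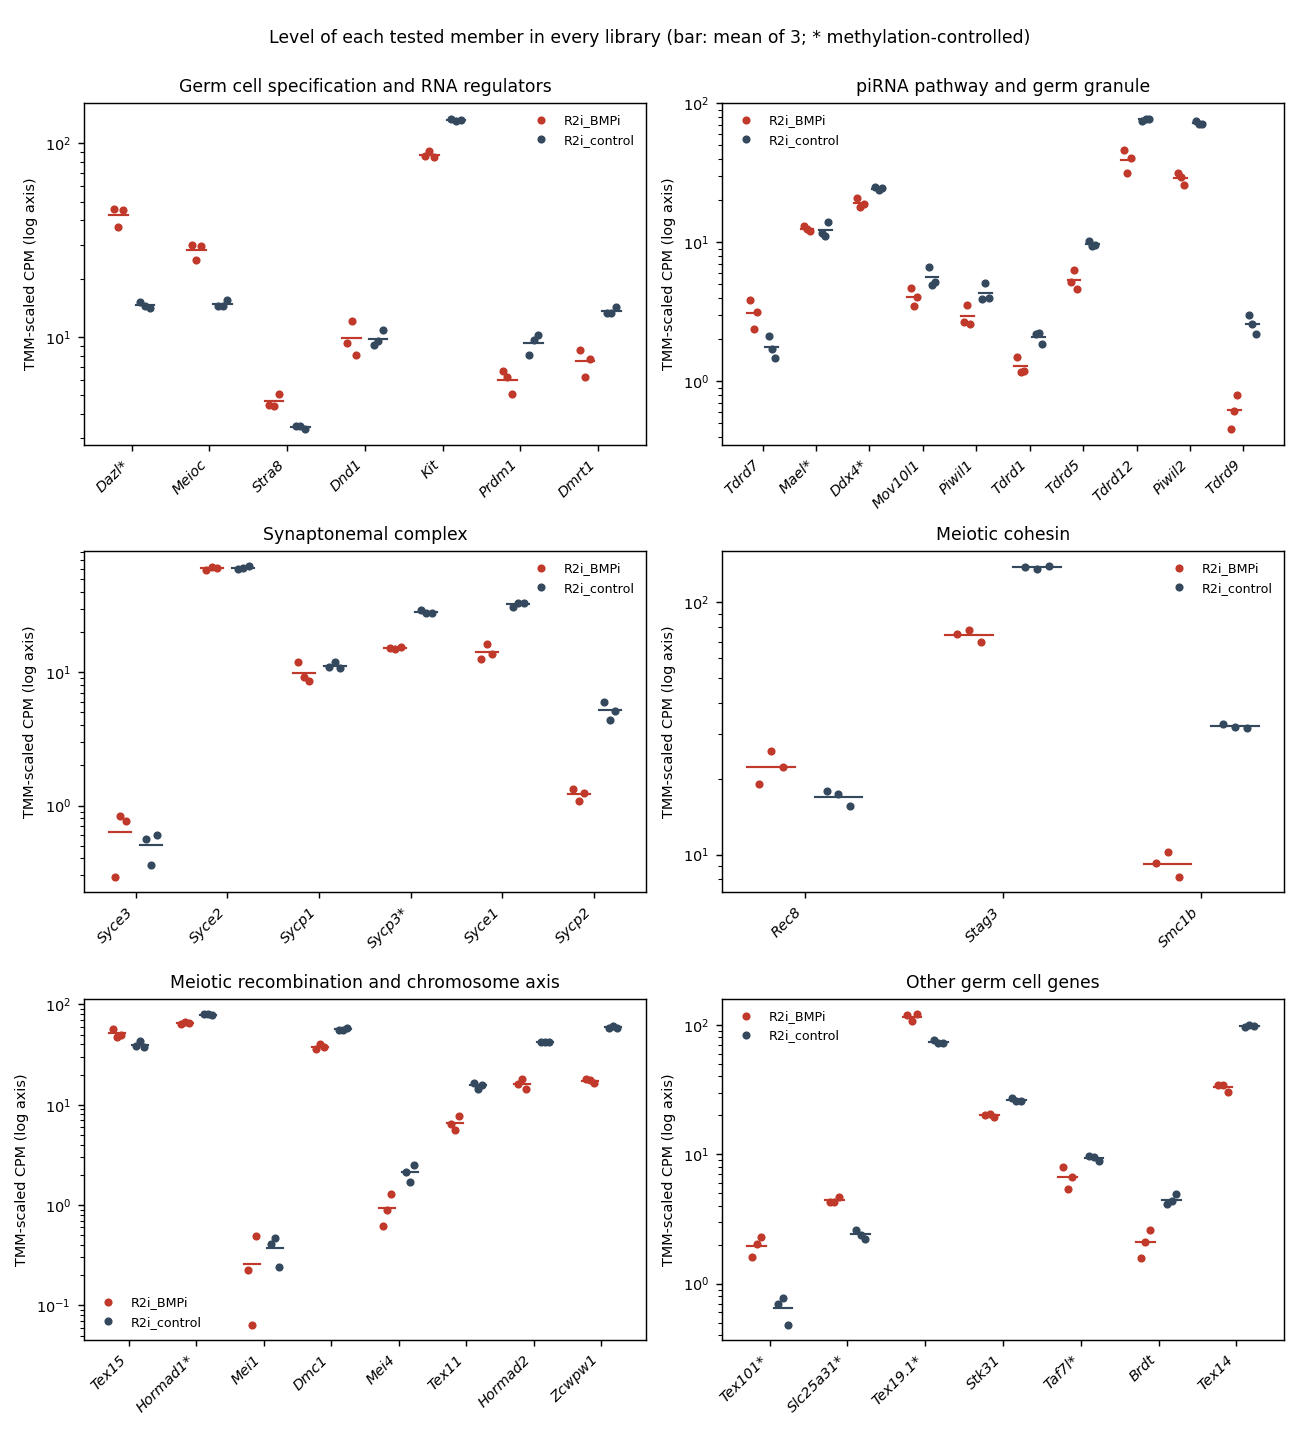
Scaled CPM on a log axis for each tested germline gene in every library, with R2i_BMPi to the left of R2i_control, a bar at the mean of 3 libraries and a star on methylation-controlled genes. Dazl stands at 37.0 to 45.7 CPM in BMP-inhibited libraries and 14.1 to 15.2 CPM in R2i controls, while Smc1b stands at 8.16 to 10.2 CPM in BMP-inhibited libraries and 31.8 to 32.9 CPM in R2i controls.

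Regulators of germ cell fate moved in both directions. Of 7 tested, 3 rose (Dazl, Meioc and Stra8), 3 fell (Kit, Prdm1 and Dmrt1) and Dnd1 did not pass, with a median log2 fold change of 0.01. Each direction held 42.9% of these few genes, beside 32.5% higher and 31.7% lower over all genes tested. Dazl (ENSMUSG00000010592, chromosome 17, 50279395 to 50293636) encodes an RNA-binding protein that promotes translation of germ cell transcripts. It had 1416, 1152 and 1485 counts in BMP-inhibited libraries, against 518, 522 and 469 in R2i controls. On the scaled measure these were 45.7, 37.0 and 45.2 CPM in BMP-inhibited libraries and 15.2, 14.4 and 14.1 CPM in R2i controls. Every BMP-inhibited library was above every control, with replicate 2 the lowest of the 3. The means were 42.6 ± 4.91 CPM in BMP-inhibited libraries and 14.6 ± 0.527 CPM in R2i controls (SD, n = 3 each), which is a ratio of 2.93 (log2 fold change 1.55, SE 0.08, adjusted p = 4.35e-10). Leaving out any library kept that log2 fold change between 1.5 and 1.64. Replicate 2 was also the lowest BMP-inhibited library for the summed 2-cell-like markers, at 35.8 CPM beside 50.1 and 51.9 CPM. Of the germline genes that rose, it was the lowest for all but Tex101 (2.02 CPM) and Rec8 (25.7 CPM). Among those that fell it was the lowest for some, such as Dmrt1 (6.20 CPM), and the highest for others, such as Smc1b (10.2 CPM). A link with the 2-cell-like state was not tested.

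Meioc, which with the RNA helicase YTHDC2 keeps germ cells in the meiotic programme, had 29.8, 24.9 and 29.6 CPM in BMP-inhibited libraries, against 14.4, 14.4 and 15.6 CPM in R2i controls (log2 fold change 0.93, SE 0.08, adjusted p = 1.34e-07). As for Dazl, the groups were apart and replicate 2 was the lowest of its group. Stra8, the retinoic acid target that starts meiosis, had 4.43 to 5.09 CPM in BMP-inhibited libraries and 3.35 to 3.48 CPM in R2i controls, with at most 167 counts in a library (log2 fold change 0.44, adjusted p = 0.0146). Its adjusted p was 0.0555 without BMP-inhibited replicate 3 and 0.0516 without control replicate 3.

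Kit, the receptor for stem cell factor on which migrating germ cells depend, had 86.4, 91.3 and 84.8 CPM in BMP-inhibited libraries, against 134, 130 and 132 CPM in R2i controls (log2 fold change -0.59, SE 0.05, adjusted p = 1.71e-08). Prdm1 (BLIMP1), a transcriptional repressor that specifies primordial germ cells, had 6.65, 6.23 and 5.09 CPM in BMP-inhibited libraries and 8.10, 9.71 and 10.2 CPM in R2i controls (log2 fold change -0.64, SE 0.13, adjusted p = 0.000466). Dmrt1, a DM-domain transcription factor of germ and Sertoli cells, had 8.59, 6.20 and 7.74 CPM in BMP-inhibited libraries and 13.3, 13.3 and 14.3 CPM in R2i controls (log2 fold change -0.86, SE 0.12, adjusted p = 8.14e-06). All 3 had every BMP-inhibited library below every control. Dnd1, an RNA-binding protein needed for germ cell survival, lay at 8.13 to 12.1 CPM in BMP-inhibited libraries and 9.07 to 10.9 CPM in R2i controls, where the groups overlapped (log2 fold change 0.01, SE 0.13), with a largest count of 377. Its exons overlap those of Wdr55 on the opposite strand over 140 bases, and the strand setting of the counting is not known. Nanos3, which protects early germ cells from death, had 4, 12 and 13 counts in BMP-inhibited libraries and 5, 9 and 1 in R2i controls, too few to test.

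Most genes of the piRNA pathway fell. Of 10 tested, 8 fell, Tdrd7 rose and Mael did not pass, with a median log2 fold change of -0.64. Those that fell were 80%, beside 31.7% of all genes tested. The 13 listed genes summed to 109 to 130 CPM in BMP-inhibited libraries and 210 to 214 CPM in R2i controls. Piwil2 (MILI; ENSMUSG00000033644, chromosome 14, 70372477 to 70429383), the PIWI protein of fetal and adult male germ cells, had 31.5, 29.5 and 25.8 CPM in BMP-inhibited libraries. In R2i controls it had 74.8, 71.4 and 70.9 CPM, so no libraries of the groups overlapped (log2 fold change -1.32, SE 0.07, adjusted p = 2.27e-10). Piwil1 (MIWI), the PIWI protein of later spermatogenesis, had 2.68, 3.53 and 2.56 CPM in BMP-inhibited libraries, against 3.92, 5.10 and 3.95 CPM in R2i controls (log2 fold change -0.57, SE 0.18, adjusted p = 0.011). That call was lost without control replicate 2 (adjusted p = 0.0754) and stood at the threshold without BMP-inhibited replicate 3 (adjusted p = 0.05). Piwil4 (MIWI2), which directs DNA methylation of transposons in fetal testis, had 1, 14 and 6 counts in BMP-inhibited libraries and 1, 8 and 6 in R2i controls, and was not tested.

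Tudor-domain genes, whose products bind methylated arginines of PIWI proteins, included the largest fall among the tested genes of the pathway. Tdrd9, a Tudor protein with a helicase domain, had 0.452, 0.610 and 0.792 CPM in BMP-inhibited libraries and 2.98, 2.59 and 2.20 CPM in R2i controls (log2 fold change -2.06, SE 0.26, adjusted p = 5.43e-06). Tdrd12, needed for secondary piRNAs, had 45.8, 31.3 and 40.7 CPM in BMP-inhibited libraries and 74.8, 77.5 and 77.5 CPM in R2i controls (log2 fold change -0.96, SE 0.09, adjusted p = 2.6e-07). Its BMP-inhibited libraries were spread, with replicate 2 the lowest, but all lay below the controls. Tdrd5, of the germ granule, had 5.17, 6.36 and 4.63 CPM in BMP-inhibited libraries and 10.2, 9.38 and 9.59 CPM in R2i controls (log2 fold change -0.86, SE 0.13, adjusted p = 2.38e-05). Tdrd5 overlaps an antisense gene that had 0 counts in every library. Tdrd1, the Tudor partner of MILI, had 1.49, 1.16 and 1.19 CPM in BMP-inhibited libraries, against 2.19, 2.23 and 1.84 CPM in R2i controls (log2 fold change -0.71, SE 0.22, adjusted p = 0.0114). Tdrd7, which acts in the lens as well as in spermatids, went the other way. It had 3.81, 2.38 and 3.14 CPM in BMP-inhibited libraries and 2.11, 1.71 and 1.48 CPM in R2i controls (log2 fold change 0.81, SE 0.22, adjusted p = 0.00417). The groups of these 5 genes were apart, although Tdrd9, Tdrd1 and Tdrd7 rest on low levels.

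Ddx4 (VASA), the DEAD-box helicase of germ granules, had 20.9, 17.9 and 18.9 CPM in BMP-inhibited libraries, against 24.8, 23.6 and 24.5 CPM in R2i controls (log2 fold change -0.34, SE 0.08, adjusted p = 0.0012). Mael, a piRNA factor that binds RNA, had 13.1, 12.4 and 12.1 CPM in BMP-inhibited libraries and 11.7, 11.1 and 14.1 CPM in R2i controls (log2 fold change 0.03, SE 0.10, adjusted p = 0.827). Ddx4 was lower in all 3 BMP-inhibited libraries, whereas for Mael the controls enclosed the BMP-inhibited values. Mov10l1, the helicase that processes piRNA precursors, lay at 3.5 to 4.65 CPM in BMP-inhibited libraries and 4.91 to 6.67 CPM in R2i controls (log2 fold change -0.46, adjusted p = 0.0193), with at most 228 counts. Its adjusted p was 0.0561 without BMP-inhibited replicate 2, 0.0502 without BMP-inhibited replicate 3 and 0.135 without control replicate 1. Asz1, which anchors the pathway at mitochondria, had 10, 4 and 3 counts in BMP-inhibited libraries and 4, 3 and 3 in R2i controls. Tdrd6, of the chromatoid body in spermatids, had 2, 0 and 0 counts in BMP-inhibited libraries and 0 in each R2i control. Neither was tested.

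The synaptonemal complex, the protein ladder that joins paired chromosomes, changed unevenly across its parts. Of its 6 genes 3 fell, 0 rose and 3 did not pass, with a median log2 fold change of -0.54. The share called, 50%, is below the 64.2% of all genes tested. Sycp2, of the lateral elements, had 1.32, 1.09 and 1.25 CPM in BMP-inhibited libraries, against 6.03, 4.39 and 5.10 CPM in R2i controls (log2 fold change -2.08, SE 0.19, adjusted p = 1.45e-07). Its lateral-element partner Sycp3 had 15.2, 15 and 15.6 CPM in BMP-inhibited libraries, against 29.4, 27.7 and 27.7 CPM in R2i controls (log2 fold change -0.89, SE 0.07, adjusted p = 3.01e-08). Neither overlapped between the groups, and the controls of Sycp2 were more spread than those of Sycp3. Sycp3 shares 660 exon bases with Chpt1 on the opposite strand, so its counts are uncertain, and Chpt1 had the opposite direction (log2 fold change 0.23, SE 0.09, adjusted p = 0.0347). Syce1, of the central element, had 12.6, 16.3 and 13.7 CPM in BMP-inhibited libraries and 31.1, 33.3 and 33.3 CPM in R2i controls (log2 fold change -1.20, SE 0.09, adjusted p = 1.26e-08).

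The 3 genes of the complex that did not pass differ in how much they can show. Syce2, also of the central element, had 58.9 to 62.1 CPM in BMP-inhibited libraries and 59.7 to 62.5 CPM in R2i controls, with up to 2187 counts and a standard error of 0.05 (log2 fold change -0.01, adjusted p = 0.911). Sycp1, which forms the transverse filaments, had 8.68 to 11.9 CPM in BMP-inhibited libraries and 10.8 to 12.0 CPM in R2i controls (log2 fold change -0.18, SE 0.12, adjusted p = 0.194), with a largest count of 435. Its pseudogene Sycp1-ps1 matches 80.1% of the longest transcript, and without BMP-inhibited replicate 1 the adjusted p was 0.0144. Syce3 had at most 26 counts and 0.291 to 0.835 CPM in BMP-inhibited libraries, against 0.359 to 0.603 CPM in R2i controls (log2 fold change 0.32, SE 0.41, adjusted p = 0.51). For Syce3 a change of moderate size was not detectable at this depth.

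Among the meiotic cohesins, which hold sister chromatids together in meiosis, 2 fell and Rec8 rose. Over all genes tested 31.7% fell and 32.5% rose. Smc1b (ENSMUSG00000022432, chromosome 15, 85064689 to 85131964), the meiosis-specific SMC subunit, had 9.27, 10.2 and 8.16 CPM in BMP-inhibited libraries. R2i controls had 32.9, 32.1 and 31.8 CPM (log2 fold change -1.81, SE 0.09, adjusted p = 9.9e-11). Stag3, which binds the kleisin subunit of meiotic cohesin, had 75.1, 78.1 and 70.0 CPM in BMP-inhibited libraries, against 138, 136 and 139 CPM in R2i controls (log2 fold change -0.89, SE 0.05, adjusted p = 4.38e-10). Both had every BMP-inhibited library well below every control. The kleisin Rec8 was at 19.0 to 25.7 CPM in BMP-inhibited libraries and 15.6 to 17.8 CPM in R2i controls (log2 fold change 0.40, SE 0.10, adjusted p = 0.00267), with up to 800 counts. Transcripts of meiotic cohesin subunits moved in opposite directions in the same libraries.

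Genes of recombination and the chromosome axis fell in 6 of 8 cases tested, with a median log2 fold change of -0.88. That is 75%, beside 31.7% of all genes tested. Zcwpw1 (ENSMUSG00000037108, chromosome 5, 137787798 to 137822621), a reader of the histone marks that PRDM9 leaves at recombination sites, had 17.9, 17.8 and 16.5 CPM in BMP-inhibited libraries. The R2i controls had 58.5, 60.9 and 57.7 CPM (log2 fold change -1.76, SE 0.06, adjusted p = 4.79e-12). Replicates of either group differed far less than the groups did. Zcwpw1 shares 468 exon bases with Pilra on the opposite strand, which had 0 or 1 count in each library. Hormad2, an axis protein that monitors pairing, had 16.1, 18.2 and 14.2 CPM in BMP-inhibited libraries and 42.4, 42.2 and 42.4 CPM in R2i controls (log2 fold change -1.39, SE 0.08, adjusted p = 7.99e-10). Hormad1, its paralog on the axis, had 63.4, 66.8 and 64.7 CPM in BMP-inhibited libraries and 79.4, 79.9 and 78.4 CPM in R2i controls (log2 fold change -0.29, SE 0.05, adjusted p = 7.54e-05). Hormad1 has near copies, Gm7167 and Gm15529, that match 77.8% and 65.7% of its longest transcript, so its counts are uncertain.

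Tex11, an X-linked gene that promotes crossovers, had 6.49, 5.55 and 7.64 CPM in BMP-inhibited libraries, against 16.6, 14.4 and 15.7 CPM in R2i controls (log2 fold change -1.24, SE 0.12, adjusted p = 1.78e-07). Mei4, part of the machinery that makes meiotic double-strand breaks, had 0.614, 0.899 and 1.28 CPM in BMP-inhibited libraries and 2.14, 1.71 and 2.50 CPM in R2i controls (log2 fold change -1.17, SE 0.28, adjusted p = 0.00173). Dmc1, the meiotic strand-exchange recombinase, had 35.7, 40.2 and 37.2 CPM in BMP-inhibited libraries and 56.0, 55.6 and 58.2 CPM in R2i controls (log2 fold change -0.58, SE 0.06, adjusted p = 4.08e-07). The groups were apart for all 3. Tex15, known in mouse for its part in recombination and in transposon silencing with MILI, rose. It lay at 47.4 to 57.3 CPM in BMP-inhibited libraries and 37.7 to 42.8 CPM in R2i controls (log2 fold change 0.37, SE 0.07, adjusted p = 0.000364), with a largest count of 1775.

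Some genes that start recombination had very few reads. Spo11, which cuts DNA to begin recombination, had 3, 1 and 6 counts in BMP-inhibited libraries and 1, 0 and 1 in R2i controls. Meiob, a single-strand DNA-binding protein, had 5, 1 and 9 counts in BMP-inhibited libraries and 6, 5 and 8 in R2i controls. Neither had enough reads to test. Mei1, another gene of break formation, was tested at 2 to 16 counts in BMP-inhibited libraries and 8 to 17 in R2i controls, where the groups overlapped (log2 fold change -0.51, SE 0.55, adjusted p = 0.427).

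The remaining germ cell genes all passed, 3 higher and 4 lower. Over all genes tested 64.2% passed, 32.5% higher and 31.7% lower. Tex101, a membrane glycoprotein of male germ cells, had 1.61, 2.02 and 2.28 CPM in BMP-inhibited libraries, against 0.702, 0.772 and 0.482 CPM in R2i controls (log2 fold change 1.59, SE 0.28, adjusted p = 0.000108). Slc25a31, the ADP/ATP carrier of testis mitochondria, had 4.29, 4.24 and 4.69 CPM in BMP-inhibited libraries and 2.6, 2.37 and 2.23 CPM in R2i controls (log2 fold change 0.87, SE 0.16, adjusted p = 0.000175). Tex19.1, a mammal-specific gene that restrains retrotransposons, had 119, 107 and 121 CPM in BMP-inhibited libraries and 76.0, 72.1 and 72.9 CPM in R2i controls (log2 fold change 0.65, SE 0.05, adjusted p = 3.29e-08). In these 3 genes every BMP-inhibited library was above every control, at levels that differ greatly between them.

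Tex14 (ENSMUSG00000010342, chromosome 11, 87405065 to 87555823), which keeps open the intercellular bridges of germ cells, had 34.4, 34.1 and 30.5 CPM in BMP-inhibited libraries. In R2i controls it had 96.2, 99.5 and 97.9 CPM (log2 fold change -1.57, SE 0.06, adjusted p = 5.42e-12). Brdt, the testis member of the BET bromodomain family, had 1.58, 2.09 and 2.59 CPM in BMP-inhibited libraries, against 4.10, 4.39 and 4.92 CPM in R2i controls (log2 fold change -1.09, SE 0.19, adjusted p = 0.000109). Both fell with no overlap between the groups. Taf7l, a germ cell paralog of a TFIID subunit, had 7.91, 5.43 and 6.67 CPM in BMP-inhibited libraries and 9.71, 9.57 and 8.93 CPM in R2i controls (log2 fold change -0.50, SE 0.13, adjusted p = 0.00338). Stk31, a kinase-like protein with a Tudor domain, was at 19.5 to 20.5 CPM in BMP-inhibited libraries and 25.8 to 27.2 CPM in R2i controls (log2 fold change -0.39, SE 0.07, adjusted p = 0.000124), with up to 937 counts.

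Set side by side, the methylation-controlled genes were split and the others were mostly lower. Of 9 methylation-controlled genes tested, 4 rose (Dazl, Tex101, Slc25a31 and Tex19.1), 4 fell (Sycp3, Taf7l, Ddx4 and Hormad1) and Mael did not pass. Their median log2 fold change was 0.03, and none of those that fell did so by 2-fold. Of 32 other genes tested, 5 rose (Meioc, Tdrd7, Stra8, Rec8 and Tex15), 22 fell and 5 did not pass, with a median of -0.68 and 11 falls of at least 2-fold. Summed expression of the methylation-controlled genes was 268 to 292 CPM in BMP-inhibited libraries and 242 to 250 CPM in R2i controls. For the other genes it was 589 to 620 CPM in BMP-inhibited libraries and 1000 CPM in each R2i control. The difference between the lists was not tested, and both lists were chosen with earlier results of these data known. Promoter methylation was measured in neither, so the other genes may include some under the same control. Both shares called, 88.9% of methylation-controlled genes and 84.4% of the others, stood above the 64.2% of all genes tested.

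**Figure D3:**
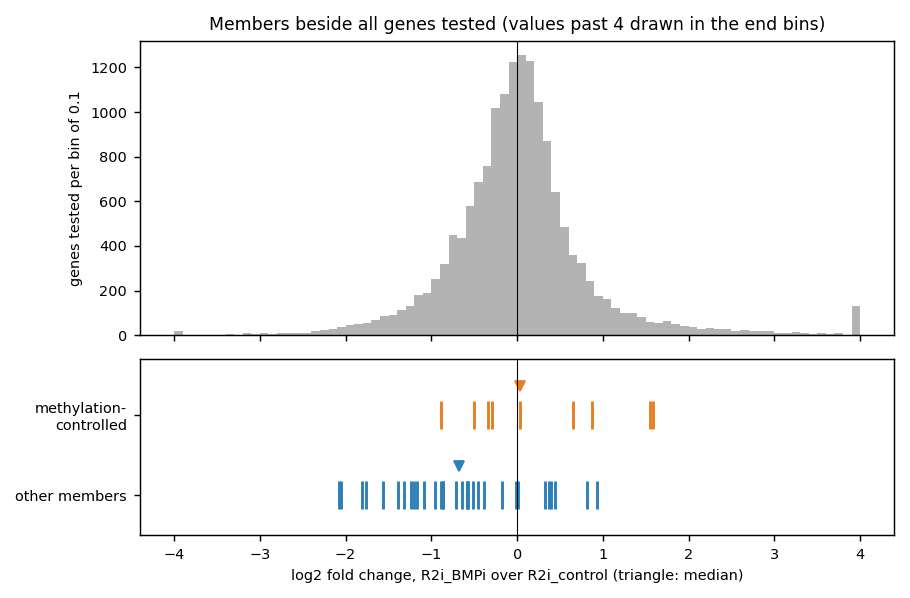
Above, the number of genes tested per bin of 0.1 in log2 fold change, BMP-inhibited over R2i control; below, 1 tick for each tested germline gene and a triangle at the median of each list. The triangle of methylation-controlled genes stands at 0.03, close to the median of 0.00 over all genes, and that of the other germline genes at -0.68.

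Promoter sequence was compared over windows of 300 bases, from 250 before to 50 after the most upstream RefSeq start, which matched 39 of the 47 genes. The median ratio of observed to expected CpG was 0.70 in germline genes, 0.782 in methylation-controlled genes and 0.625 in the other germline genes, beside 0.749 in 11471 genes tested. It was 0.708 in genes that rose and 0.686 in genes that fell. The E-box occurred in 11 of 23 promoters of genes that fell (47.8%) and in 1 of 8 of genes that rose (12.5%), that of Slc25a31, beside 10.1% of genes tested and 7.24% of all 27018 promoters. Tested genes that did not pass held it in 2 of 5 promoters (40%), those of Mael and Sycp1. The E-box was present in 6 of 10 methylation-controlled genes and in 8 of 29 others. Of the genes that fell by at least 2-fold, 2 of 9 with a promoter held an E-box, Tdrd9 and Brdt. TCCCGC on either strand occurred in 9 of 23 promoters of genes that fell (39.1%) and in 4 of 8 of genes that rose (50%), beside 35.6% of genes tested and 20.1% of all promoters. Neither motif was found in 7 of the 23 promoters of genes that fell, those of Sycp2, Zcwpw1, Hormad2, Syce1, Mei4, Tdrd12 and Prdm1. No stretch of letters can match both motifs, and a promoter can hold both, as that of Sycp3 does.

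**Figure D4:**
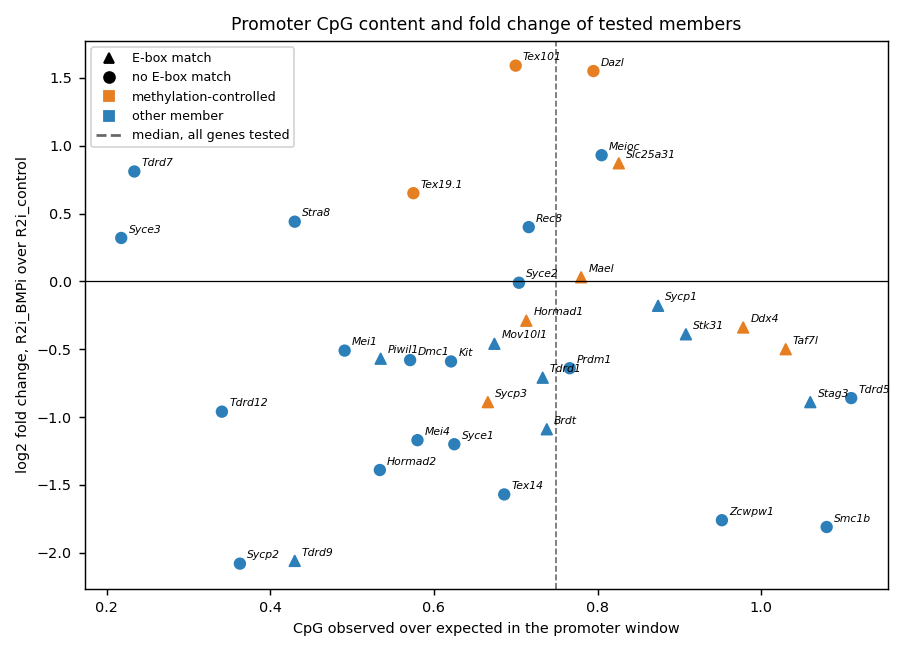
Ratio of observed to expected CpG in the promoter window against log2 fold change, BMP-inhibited over R2i control, for the tested germline genes with a RefSeq promoter; triangles mark an E-box match and the dashed line the median of 0.749 over genes tested. Genes that rose and genes that fell overlap in CpG content, and of the genes that rose only Slc25a31 is a triangle. Mael and Sycp1, which did not pass, are triangles too.

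Among other germline genes, listed by function and not among the 47, more fell than rose. Of 40 tested, 21 fell, 6 rose and 13 did not pass, with a median log2 fold change of -0.36, beside 31.7% lower and 32.5% higher over all genes. In the piRNA pathway 6 of 10 fell and 2 rose, with a median of -0.69. Gpat2, a mitochondrial protein of piRNA formation, had 18.1, 20 and 20.2 CPM in BMP-inhibited libraries and 61.9, 54.5 and 60.2 CPM in R2i controls (log2 fold change -1.60, SE 0.07, adjusted p = 3.96e-11). Rnf17, a Tudor protein, had a log2 fold change of -0.92, the chaperone-like Fkbp6 of -0.69 and the piRNA trimmer Pnldc1 of -0.68. Pnldc1 overlaps an antisense gene, so its counts are uncertain. Btbd18, a regulator of pachytene piRNA transcription named after its value was seen, rose by 2.07 (SE 0.25, adjusted p = 3.12e-06), with 2.73 to 3.47 CPM in BMP-inhibited libraries and 0.585 to 1.03 CPM in R2i controls.

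Among other meiosis genes 13 of 21 tested fell and 2 rose, with a median of -0.56. These are 61.9% lower and 9.52% higher, beside 31.7% and 32.5% of all genes tested. Majin, which tethers telomeres to the nuclear envelope in meiosis, had 2.33, 2.44 and 2.38 CPM in BMP-inhibited libraries, against 15, 17.8 and 17.1 CPM in R2i controls (log2 fold change -2.80, SE 0.12, adjusted p = 3.2e-11). Ccdc155 (KASH5), which links those telomeres to dynein, fell by 1.55 and the crossover helicase Hfm1 fell by 1.90 on the log2 scale. Hsf2bp, a partner of BRCA2 with an antisense overlap, fell by 1.07. Genes of early germ cells did not share that direction, with 2 higher, 2 lower and 5 not passing of 9 tested, a called share of 44.4% beside 64.2% of all genes. Dppa3, a maternal and germ cell factor that protects methylation marks in the zygote, had 57.8, 40.2 and 57.5 CPM in BMP-inhibited libraries, against 10.5, 11 and 9.80 CPM in R2i controls (log2 fold change 2.31, SE 0.12, adjusted p = 2.31e-10). As for Dazl, BMP-inhibited replicate 2 was the lowest of its group. Prdm14, a germ cell specification factor, fell by 0.72 on the log2 scale, and Ifitm3, an interferon-induced membrane protein of early germ cells, rose by 0.52. The RNA-binding gene Lin28a, with an antisense overlap, fell by 0.25.

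**Figure D5:**
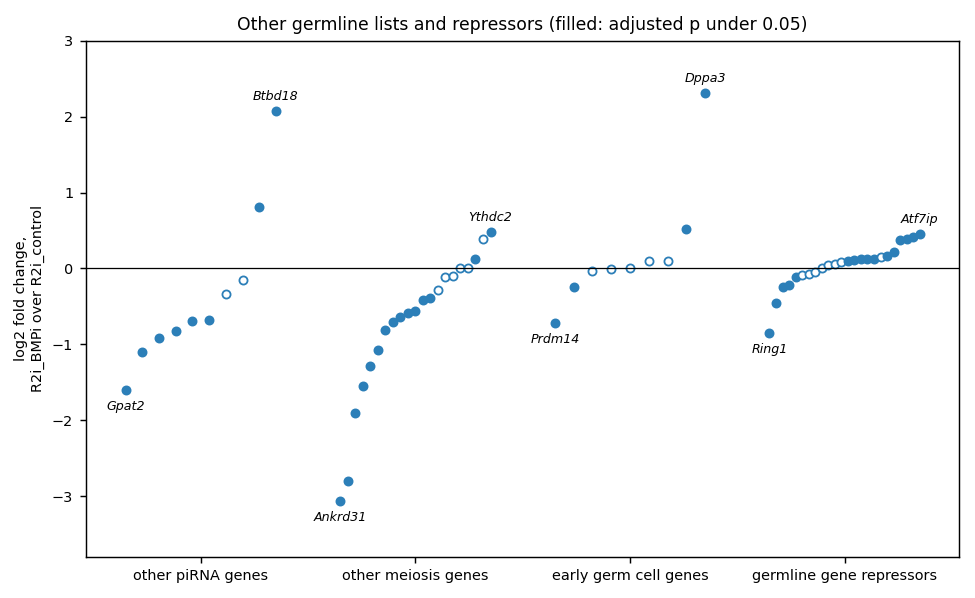
Log2 fold changes, BMP-inhibited over R2i control, of tested genes in 3 further germline lists and in a list of repressors, ordered within each list, with the lowest and highest gene named and filled points where the adjusted p was under 0.05. The repressors stay between -0.85 and 0.45, while the piRNA and meiosis lists reach -1.60 and -3.07.

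Transcripts of the factors that hold germline genes silent changed by less than 2-fold. Of 24 repressors tested, 16 passed, 11 higher and 5 lower, with a median log2 fold change of 0.09. That share, 66.7%, is close to the 64.2% called over all genes tested. The count of those that rose depended on the scaling, with 4 when only library totals were used, and on the controls, with 5 without control replicate 1, 7 without control replicate 2 and 5 without control replicate 3. Ring1, a ubiquitin ligase of Polycomb complexes, had 14.1, 12.9 and 12.4 CPM in BMP-inhibited libraries, against 24.8, 22.9 and 23.2 CPM in R2i controls (log2 fold change -0.85, SE 0.08, adjusted p = 2.35e-07). Pcgf6, of the E2F6 and MGA complex, had 79.4, 79.3 and 73.5 CPM in BMP-inhibited libraries and 106, 106 and 105 CPM in R2i controls (log2 fold change -0.45, SE 0.05, adjusted p = 5.66e-07). Atf7ip, a partner of the methyltransferase SETDB1, had a log2 fold change of 0.45 and Dnmt3l, a cofactor of DNA methyltransferases, of 0.41, and both overlap an antisense gene. Some further repressors are named after their values were seen. Rybp and Yaf2 rose, with log2 fold changes of 0.39 and 0.37, and Cbx3 and Wdr5 fell, with -0.25 and -0.22. Max, E2f6 and Mga belong to the same complex as Pcgf6. Max rose, with 100, 107 and 106 CPM in BMP-inhibited libraries and 96.8, 94.3 and 90.3 CPM in R2i controls (log2 fold change 0.16, SE 0.05, adjusted p = 0.00847). E2f6 and Mga did not pass. The log2 fold change of E2f6 was -0.05 (SE 0.06) and that of Mga was 0.15 (SE 0.08).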

How the data were processed

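Poly(A) RNA was sequenced from 6 cultures, 3 labelled R2i_BMPi and 3 R2i_control, which the labels call biological replicates. The authors deposited 1 table per library, with raw counts of reads for each gene. Their processing notes list, with no roles, STAR 2.6.1 and HTSeq 0.9.1 beside DESeq2, CASAVA 1.8.2 and cutadapt 1.4.2, and the build GRCm38.p6. The annotation release and strand setting are not given in the sources used here. Rows that name no gene held 25.6% to 26.4% of reads and were left out.

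Symbols came from GENCODE release M21. Counts were compared with edgeR 4.0.16 (quasi-likelihood F test, TMM scaling, default filter with a minimum count of 10 and a total of 15, two-sided, Benjamini-Hochberg adjustment over all genes tested, threshold 0.05). The fit was tested on simulated counts. Standard errors are the absolute unshrunk coefficient over the square root of F, with a median of 0.0855 over all genes. CPM values are TMM-scaled. Alternatives were DESeq2 1.42.0, limma-voom (limma 3.58.1), library totals only, upper-quartile factors, no count filter, a filter of 1 CPM in at least 3 libraries, a replicate block and leaving out each library. Promoters are RefSeq's on GRCm38.p6; near copies were sought with BLAST 2.17.0 at 90% identity over at least 50% of the longest transcript. Python 3.11.15 and R 4.3.3 were used for the rest.

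The genes and lists were chosen with earlier results of these data known. Values in every library are given for each gene called with an absolute log2 fold change of at least 0.5, and for each tested methylation-controlled gene. The others are given by range and largest count. From each further germline list and the repressors up to 4 genes with the smallest p were named. Of 29 other meiosis genes, 28 had an identifier.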

Additional observations from a re-analysis of the deposited data

How the results depend on the processing

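Under the 13 alternatives, all 35 called germline genes kept their direction, and 32 of them kept their call wherever they were tested. The count called was 35, with 9 higher and 26 lower, under DESeq2, limma-voom, other scalings, other filters and the replicate block, and 32 to 36 when 1 library was left out. The lost calls were those of Piwil1, Mov10l1 and Stra8. With the replicate block 10210 of all genes were called, against 10236 without it, and the same-number correlations of deviations were -0.0576, 0.00355 and 0.0537.

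The 3 genes near 0 changed sign, none past the threshold. Mael was at -0.031 with library totals only, -0.005 without BMP-inhibited replicate 1, -0.008 without control replicate 1 and -0.051 without control replicate 2, and at most 0.129. Syce2 ranged from -0.023 to 0.014 without a library, at 0.014 without BMP-inhibited replicate 1 and 0.005 without control replicate 3. Dnd1 was at -0.008 under limma-voom, -0.049 with library totals only, -0.007 with upper-quartile factors and -0.001 with the replicate block. Without a library its values reached from -0.162 to 0.134, negative at -0.162, -0.047 and -0.022 without BMP-inhibited replicate 2, control replicate 1 and control replicate 2. For the repressors, 9 to 17 were called when 1 library was left out, with 5 to 13 higher, and 4 were higher with library totals only; the cause was not tested. Depth limits the 6 untested genes, and Mei1 and Syce3, to counts that could show only large changes.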
